A study of Mus musculus with 68 samples.

Results

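The replication-dependent histone genes of the mouse were followed from the oocyte to the E6.5 embryo, with and without Ezhip. They were taken by gene symbol alone, as every gene whose symbol begins with Hist1h, Hist2h, Hist3h or Hist4h, so no measured value chose them. There were 68 such genes among 24941 gene symbols in the 8 deposited expression tables. By the symbols, 6 encoded linker histone H1, 18 encoded H2A, 19 encoded H2B, 12 encoded H3 and 13 encoded H4. The Hist1 cluster on chromosome 13 held 54 of them, the Hist2 cluster on chromosome 3 held 10, Hist3 on chromosome 11 held 3 and Hist4 on chromosome 6 held 1.

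The RNA libraries were made by Smart-seq2, which copies RNA from its poly(A) tail, out of oocytes or embryos lysed without RNA purification. Fully grown oocytes (FGO) came as 3 Ezhip KO, 2 Ezhip Het and 2 wild-type (WT) libraries. Embryos carried the genotype labels Ezhip mKO, Ezhip mHet or wild type. There were 2 mKO, 2 mHet and 2 WT libraries at the PN5 1-cell stage, the late 2-cell stage (L2C), and in the E6.5 extraembryonic ectoderm (ExE) and epiblast (Epi). At the 8-cell stage (8C) there were 3 mKO, 1 mHet and 2 WT libraries. E3.5 blastocysts came in 2 separate tables, the first with 2 mKO, 2 mHet and 2 WT libraries and the other with 5 of each. At E4.25 there were 4 mKO and 4 WT libraries, and 2 mHet libraries with identical values that were counted as 1. Strain, age of the mothers, the way Ezhip was disrupted and the number of oocytes or embryos behind each library were not given in the sources used here. The labels do not say that replicates came from separate animals, so every p-value below measures only the spread between these libraries. All values are the authors' FPKM, in which the fragments of a gene are divided by its length and by the size of the library, and which were normalised within each table. Levels set side by side from different tables are therefore descriptions.

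Histones package DNA: H2A, H2B, H3 and H4 form the nucleosome core, and H1 binds the linker DNA between cores. Replication-dependent histone genes are transcribed mainly in S phase from clustered copies, under the coactivator NPAT. Their mRNAs usually end in a short stem-loop bound by SLBP rather than in a poly(A) tail, although polyadenylated forms of some of them are made in oocytes and in differentiated cells. EZHIP is an inhibitor of PRC2, the complex that methylates H3 at lysine 27, and is made in germ cells. A level in these libraries therefore counts the transcripts that a poly(A)-based method can copy, and the share of each gene's mRNA that this leaves out was not measured.

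The stem-loop sequence was searched for in the annotated transcripts, because it is the feature that separates these mRNAs from others. It was present in an annotated transcript of 44 of the 68 genes and absent from those of 24, and among all 141767 annotated mouse transcripts it was found in 55 (0.0388%). The copies below belong to genes described later, and the capitals mark the stem-loop.

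Hist1h2ap: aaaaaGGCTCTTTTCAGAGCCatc
Hist1h2bj: ccaaaGGCTCTTTTCAGAGCCacgcaca
Hist1h2bk: ccaaaGGCTCTTTTAAGAGCCactaaac
Hist1h3f: aaaacGGCTCTTTTAAGAGCCacctcca
Hist1h4c: caaaaGGCCCTTTTCAGGGCCacccaca
Hist2h2ac: aaaaaGGCTCTTTTTAGAGCCaccaaat
Hist3h2a: ccaaaGGCTCTTTTCAGAGCCacccaca
Hist3h2ba: ccaaaGGCTCTTTTCAGAGCCaccttcc

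The most common form, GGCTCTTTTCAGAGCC, was carried by 26 genes of the H1, H2A, H2B and H3 classes. A further 6 genes of the H1, H2B and H3 classes had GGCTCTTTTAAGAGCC, as Hist1h2bk does, and Hist2h2ac alone had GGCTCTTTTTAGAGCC. The H4 genes differed as a class: 7 carried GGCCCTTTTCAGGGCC, as Hist1h4c does, and the other 4 with a match carried the variants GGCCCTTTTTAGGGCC (2 genes) and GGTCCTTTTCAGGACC (2 genes). How far the annotated transcript runs on past the stem-loop also differed. In 21 genes it stopped within 60 bases, as in Hist1h2ap, where 3 bases follow. In 22 genes it ran on for 100 bases or more, as in Hist1h4c with 454 bases and Hist3h2a with 1643 bases, and 1 gene lay between. Annotated forms of Hist1h2bc, Hist1h2aa, Hist1h2ba, Hist1h1a and Hist1h1b had no match. Several entries without a match are short, such as Hist1h2aa (390 bases), Hist1h2ba (384 bases) and Hist1h4k (312 bases), against 482 bases for Hist1h2ap. Others are longer, such as Hist1h1a (741 bases), Hist1h1b (743 bases) and Hist1h2bc (1156 bases). The search took a fixed 16-base pattern with paired stem bases, so a form outside it would not match. An entry that stops before the stem-loop cannot show a match either, so no match does not mean that the mRNA lacks one.

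Promoter sequences (250 bases before to 50 bases after the annotated start, RefSeq, GRCm38.p6) were available for 61 of the 68 genes. CCAAT, a common element of histone promoters, was present on either strand in 52 of these (85.2%), against 37.9% of 27025 mouse promoters of the same length. It was in all 49 promoters of H1, H2A, H2B and H3 genes and in 3 of 12 promoters of H4 genes. TATAAA was in 35 (57.4%), against 14.2% of all promoters. The octamer ATTTGCAT, a POU factor element long known from H2B genes, was in 13 (21.3%), against 1.75% of all promoters, and these were 7 H2A and 6 H2B genes. Windows of divergent H2A and H2B genes often overlap, as for Hist1h2ah and Hist1h2bk or Hist1h2ae and Hist1h2bg, so a single site can count for both genes. Hist1h2bq and Hist1h2br have the same window sequence. These promoters are therefore not all separate cases. The pair Hist1h2aa and Hist1h2ba encode the testis-type variants of H2A and H2B, and are shown because they point away from each other and were both found in the earliest stages. Their windows share 220 bases (chr13:23934187-23934406), and the capitals mark the 3 motifs or their reverse complements. The windows lie at chr13:23934187-23934486 on the plus strand and chr13:23934107-23934406 on the minus strand. The motifs are given as letters found, and whether any factor binds them was not measured.

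Hist1h2aa: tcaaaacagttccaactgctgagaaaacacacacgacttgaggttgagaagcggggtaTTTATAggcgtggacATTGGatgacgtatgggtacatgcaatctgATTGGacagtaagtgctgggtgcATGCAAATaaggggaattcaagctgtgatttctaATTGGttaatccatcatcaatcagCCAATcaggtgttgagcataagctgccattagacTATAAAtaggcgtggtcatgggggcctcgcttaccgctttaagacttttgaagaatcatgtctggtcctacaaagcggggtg
Hist1h2ba: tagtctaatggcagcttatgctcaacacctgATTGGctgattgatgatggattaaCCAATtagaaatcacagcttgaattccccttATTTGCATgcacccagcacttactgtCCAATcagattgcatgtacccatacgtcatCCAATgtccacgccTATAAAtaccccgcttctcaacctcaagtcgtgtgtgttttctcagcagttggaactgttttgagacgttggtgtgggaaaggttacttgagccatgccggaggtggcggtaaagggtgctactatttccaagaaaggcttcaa

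The copies are so alike that reads may not tell them apart, and the handling of reads that map to several places was not given in the sources used here. A median of 49.4% of a member's 50-base stretches was shared exactly with another gene, and 8 members shared over 90% of theirs. Hist1h2ap and Hist1h2ao shared 93.1% and 93.5% of theirs. Hist2h2aa2 shared 100% of its stretches with the gene Gm20634, which also held 89.4% of those of Hist2h2aa1. Hist1h2bq and Hist1h2br had identical values in the tables. Levels of such copies are uncertain one by one.

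The deposited values behave as the labels say for Ezhip (listed as AU022751) while the gene is active. It stood at 0, 0.175 and 0.117 FPKM in KO oocytes, 143 and 84.1 FPKM in Het oocytes, and 546 and 297 FPKM in WT oocytes. In 1-cell embryos AU022751 stood at 0.933 and 0.124 FPKM in mKO, 157 and 244 FPKM in mHet, and 251 and 368 FPKM in WT embryos. From the 8-cell stage on, its level no longer checks the labels, since the highest AU022751 value was 1.503 FPKM, in a WT 8-cell library. The number of reads per library could not be recovered from the values. Genes at 1 FPKM or more numbered 4940 to 9804 per library. The share of all FPKM taken by Rn45s, the ribosomal RNA precursor, ran from 0.209% to 6.03% up to the 8-cell stage, 2.13% to 21.0% in the first E3.5 table, 9.19% to 69.5% in the other, 11.7% to 68.6% at E4.25 and 0.341% to 11.6% at E6.5.

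A few genes gave most of the histone FPKM, and they were different ones in the oocyte and in the 8-cell embryo. In WT libraries the summed FPKM of all members was 330 and 429 in oocytes, 208 and 230 at the 1-cell stage, 379 and 472 at the late 2-cell stage, and 569 and 612 at the 8-cell stage. Blastocysts had 655 and 644 FPKM in the first E3.5 table and between 604 and 1938 FPKM in the other, and the sum was 372, 373, 162 and 214 at E4.25. In the E6.5 tissues it was 1261 and 849 in ExE and 1613 and 1353 in Epi. WT libraries up to the late 2-cell stage and at E4.25 were thus at the low end, none above 472 FPKM, and the highest sums, 1696 and 1938 FPKM, were in the second E3.5 table. Because these are bulk samples, fewer cells making a transcript and less RNA per cell cannot be told apart.

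**Figure D1:**
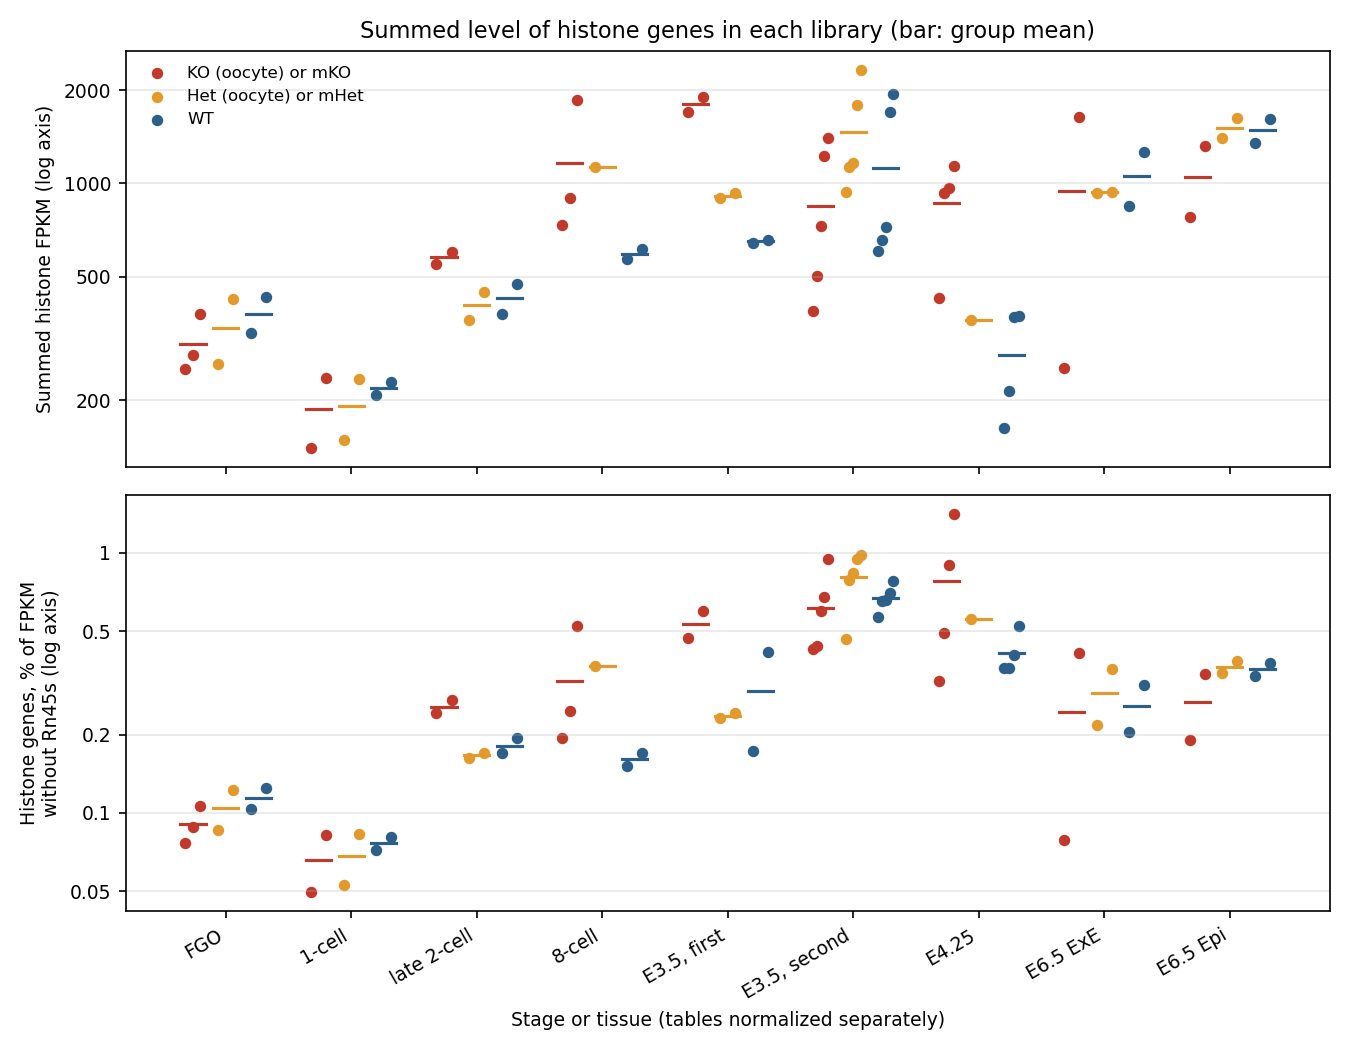
Summed FPKM of the histone genes in each library (upper panel, log axis) and their share of FPKM without Rn45s in percent (lower panel, log axis), by stage or tissue. Points are libraries and bars group means, with mKO (or KO) left, mHet (or Het) in the middle and WT on the right. In the upper panel mKO lies above WT at the late 2-cell and 8-cell stages, in the first E3.5 table and at E4.25. It lies below WT in Epi and overlaps it elsewhere. In the lower panel mKO and WT overlap at E4.25 and in Epi too.

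In oocytes Hist1h2bc, an H2B gene with no stem-loop in its annotated transcript, gave 42.7% of all histone FPKM. It stood at 86.6, 112 and 166 FPKM in KO, 120 and 200.1 FPKM in Het and 123 and 198 FPKM in WT oocytes, so the genotypes overlapped. In 1-cell embryos Hist1h2bc stood at 8.41 and 15.6 FPKM in mKO, 6.77 and 11.4 FPKM in mHet and 7.12 and 16.6 FPKM in WT embryos. In 8-cell WT embryos it was at 0.928 and 0.933 FPKM. The next in oocytes were the H2A variant Hist1h2aa (mean over the libraries 32.9 FPKM), Hist1h2bg (21.6 FPKM), Hist2h2aa1 (13.0 FPKM), Hist2h2aa2 (12.1 FPKM) and Hist3h2a (7.99 FPKM). These 6 genes made up 68.7% of histone FPKM.

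Hist1h2aa kept its level longer than Hist1h2bc. It stood at 36.0, 33.4 and 30.3 FPKM in KO, 25.0 and 32.1 FPKM in Het and 38.7 and 34.7 FPKM in WT oocytes. In 1-cell embryos it was at 20.3 and 22.9 FPKM in mKO, 13.6 and 25.1 FPKM in mHet and 27.2 and 23.4 FPKM in WT embryos, again with overlap. In WT blastocysts of the second E3.5 table Hist1h2aa averaged 0.670 ± 0.889 FPKM (SD, n = 5). Hist1h2ba, its divergent partner, was between 0.475 and 3.89 FPKM in all oocyte libraries. At the 1-cell stage Hist1h2ba was higher, at 10.8 and 16.1 FPKM in mKO, 9.36 and 16.0 FPKM in mHet and 7.56 and 9.73 FPKM in WT embryos. Hist1h2aa was thus high in both tables and Hist1h2ba in the 1-cell table only.

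At the 1-cell stage Hist1h1a, the gene of linker histone H1.1, led with 23.5 and 29.5 FPKM in mKO, 25.9 and 31.1 FPKM in mHet and 23.4 and 28.1 FPKM in WT embryos. The genotypes overlapped. All 5 classes were well represented there: over the 6 libraries H2A took 27.3% to 33.7% of histone FPKM, H2B 26.1% to 29.6%, H1 11.6% to 17.9%, H3 9.88% to 14.2% and H4 9.96% to 19.2%. At the late 2-cell stage core histone genes of several classes were high together. The H3 gene Hist1h3f stood at 70.8 and 61.4 FPKM in mKO, 34.4 and 45.4 FPKM in mHet and 45.2 and 49.1 FPKM in WT embryos, so both mKO libraries were above all others. The H4 gene Hist1h4c stood at 29.0 and 30.3 FPKM in mKO, 34.2 and 31.9 FPKM in mHet and 24.7 and 31.4 FPKM in WT embryos, with overlap. Outside the 2-cell stage Hist1h3f was low: it did not exceed 10.3 FPKM in oocytes or 5.29 FPKM at the 8-cell stage.

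From the 8-cell stage on H2A genes of the Hist1 cluster made up most of the signal. Hist1h2ap, which was between 1.28 and 4.04 FPKM in oocytes, stood at 429, 189.6 and 214 FPKM in mKO, 262 FPKM in mHet and 112 and 170 FPKM in WT 8-cell embryos. H2A took 64.3% to 90.3% of histone FPKM in the 8-cell libraries, 66.5% to 81.8% in the first E3.5 table, 56.8% to 75.6% in the other and 51.5% to 84.7% at E6.5. Besides Hist1h2ap and its near-copy Hist1h2ao, the leading genes were Hist1h2ah, Hist1h2ag, Hist1h2ad, Hist1h2an and the H4 gene Hist1h4d, and in the second E3.5 table and at E4.25 also Hist1h1b, the gene of H1.5, with means of 50.3 and 21.3 FPKM. The leading 6 genes gave 69.7% of histone FPKM at the 8-cell stage and 60.7% at E6.5. E4.25 stood apart through WT replicate 3, where Hist1h2bc alone gave 66.5% of histone FPKM.

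The WT levels of the 60 members present in every table were also ranked. Spearman's rho between oocytes and 1-cell embryos was 0.84, between oocytes and 8-cell embryos -0.06, between 8-cell embryos and blastocysts of the second E3.5 table it was 0.91, and between ExE and Epi 0.95. Between 8-cell embryos and blastocysts of the first E3.5 table it was 0.60, and 8-cell embryos gave 0.53 with ExE and 0.42 with Epi. These are correlations across genes, many of them near-copies whose reads may be shared, so they describe the tables and carry no test.

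**Figure D2:**
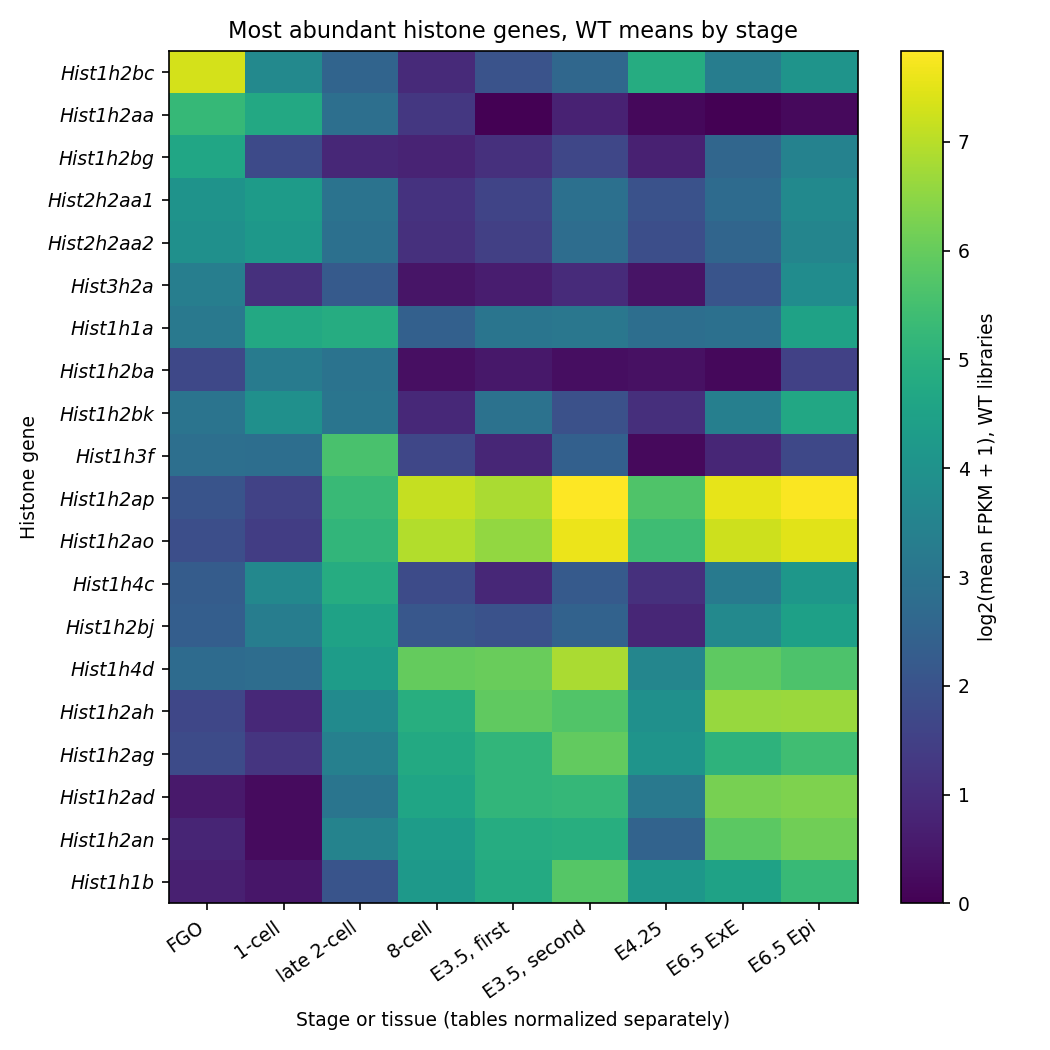
WT level, as log2(mean FPKM + 1), of the most abundant histone genes (down the page) at each stage or tissue (across); the tables were normalised separately. Hist1h2bc and Hist1h2aa are brightest among the FGO values, Hist1h3f at the late 2-cell stage, and Hist1h2ap and Hist1h2ao from the 8-cell stage on.

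The shares by annotated 3′ end differed likewise, and a few members carried them. The classes sort genes by their annotated entry, and whether the mRNAs of no-match genes lack a stem-loop was not measured. Hist1h2bc and Hist1h2aa, both without a match, gave 42.7% and 9.79% of oocyte histone FPKM, and Hist1h2ap and Hist1h2ao, which stop within 60 bases, gave 23.8% and 20.5% at the 8-cell stage. Genes with no stem-loop match gave 58.7% to 62.7% of histone FPKM in oocyte libraries, 43.0% to 53.7% at the 1-cell stage, 22.9% to 27.5% at the late 2-cell stage and 18.8% to 27.7% at the 8-cell stage. Genes whose transcript stops within 60 bases of the stem-loop gave 14.0% to 19.7% in oocytes, 28.3% to 36.7% at the 1-cell stage, 37.7% to 47.5% at the late 2-cell stage and 52.6% to 67.9% at the 8-cell stage. The ranges of oocyte and 8-cell libraries did not overlap for either class. At E6.5 the transcripts that stop at the stem-loop held 48.6% to 61.8%. Within the 8-cell table the genotypes overlapped in the no-match class, at 25.5%, 27.7% and 20.8% in mKO, 21.3% in mHet and 21.7% and 18.8% in WT embryos. Slbp, the stem-loop binding protein, was highest at the early stages: 668, 635 and 607 FPKM in KO, 607 and 505 FPKM in Het and 850 and 618 FPKM in WT oocytes, and 1520 and 1086 FPKM in mKO, 1353 and 1067 FPKM in mHet and 1449 and 1165 FPKM in WT 1-cell embryos. It was between 66.9 and 146 FPKM at the late 2-cell stage and 2.88 and 32.6 FPKM in the second E3.5 table.

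**Figure D3:**
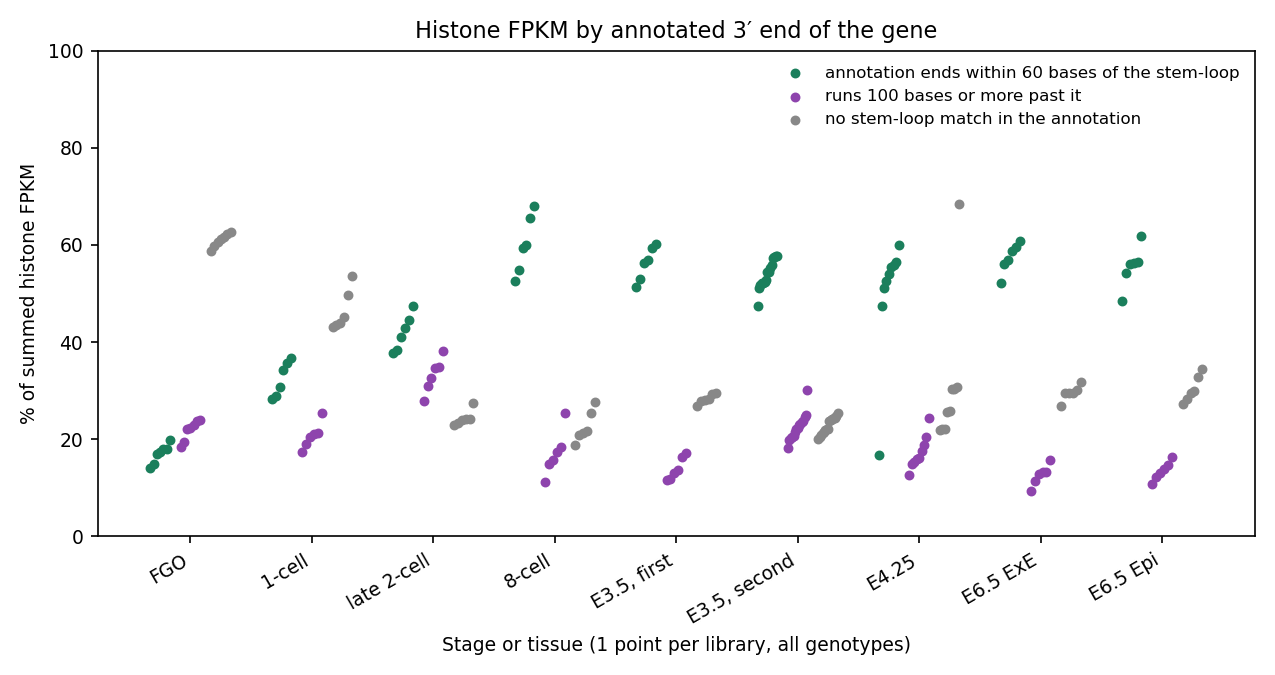
Percent of histone FPKM (axis 0 to 100) from genes whose annotated transcript stops within 60 bases of the stem-loop, runs 100 bases or more past it, or has no match, from left to right within each stage or tissue. Each point is a library of any genotype. The no-match share is 58.7% to 62.7% in FGO, and the share stopping within 60 bases is 52.6% to 67.9% at the 8-cell stage.

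For the genotype comparisons each gene was tested with limma on log2(FPKM + 1), two-sided, after leaving out genes that reached 1 FPKM in fewer than 2 libraries of their table, and p-values were adjusted by Benjamini-Hochberg over all genes kept. A gene is said to be called, to have risen or to have fallen, where its adjusted p was under 0.05. The scale understates changes of low genes. Members that passed this filter numbered 40 in oocytes, 39 at PN5, 53 at L2C, 49 at 8C, 57 and 62 at E3.5, 61 at E4.25 and 66 at E6.5. Of the 68 genes, 29 passed in all 8 tables. Hist1h1t, the testis linker histone, passed in none, with a highest value of 1.59 FPKM, and Hist2h2be passed in 1. Each mKO (or KO) comparison shares its WT libraries with the mHet (or Het) comparison of the same table.

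In oocytes and 1-cell embryos no histone gene was called for either genotype. In KO oocytes 12 of 40 members were higher than in WT and 28 lower, with a median log2 difference of -0.16 against -0.05 over all genes, and 0 called where 0.0102% of all genes were. In 5 members every KO library was below both WT libraries, which held for 1.12% of all genes. In Het oocytes the median was -0.21 against 0.01, with 0 members called and 0% of all genes, and 9 members were below WT without overlap, against 1.32% of all genes. In mKO 1-cell embryos 8 of 39 members were higher and 31 lower, with a median of -0.19 against -0.06 and 0 called where 0.0116% of all genes were. In mHet 1-cell embryos the median was -0.16 against -0.01, and 0% of all genes were called. At an unadjusted p under 0.05, limma gave 0 members in KO (0.112% of all genes) and 0 in Het oocytes (0.0713%), and 1 in mKO (2.49%) and 0 in mHet 1-cell embryos (0.837%). The oocyte libraries also differed among themselves across genotypes: the H3 share of histone FPKM was 11.7% to 14.6% in the libraries numbered 1 to 4 in the labels and 2.66% to 4.31% in those numbered 5 to 7. Genes at 1 FPKM or more were 7316 to 8443 in the 4 libraries and 9432 to 9801 in the other 3. With this split as a term in the fit, 0 members were called in KO and in Het oocytes, and the members' medians stayed at -0.16 and -0.21, against 0.09 and 0.01 over all genes.

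At the late 2-cell stage histone genes were mostly higher in mKO embryos, without any call. The summed FPKM was 551 and 603 in mKO, 362 and 447 in mHet and 379 and 472 in WT embryos, so the mKO libraries were above all others. Of 53 members 45 were higher in mKO than in WT, with a median log2 difference of 0.42 against -0.07 over all genes, and 0 were called where 0.00969% of all genes were. At an unadjusted p under 0.05, limma gave 4 members, all higher, against 7.56% of all genes. In 23 members both mKO libraries were above both WT libraries, which held for 13.7% of all genes. Hist1h2ag, an H2A gene, stood at 15.6 and 23.5 FPKM in mKO and 8.57 and 10.8 FPKM in WT embryos, a log2 difference of 0.92 (SE 0.28, limma adjusted p = 0.48). Hist1h3c stood at 3.75 and 3.65 FPKM in mKO and 0.592 and 1.92 FPKM in WT embryos, a log2 difference of 1.12 (limma adjusted p = 0.539). In both genes the groups did not overlap, and neither passed the threshold. In mHet embryos 21 of 53 members were higher than in WT, with a median of -0.06 against 0.03, and 0 members and 0% of all genes were called. At an unadjusted p under 0.05 limma gave 2 members there, against 2.94% of all genes. The lowest p was that of the H4 gene Hist1h4i, at 2.05 and 3.498 FPKM in mHet and 11.4 and 9.92 FPKM in WT embryos, a log2 difference of -1.65 (limma adjusted p = 1). A list of 5 genes marking the 2-cell embryo moved with the mKO difference, with no marker at 0. Its summed level was 169 to 256 FPKM in mKO, 52.2 to 59.7 FPKM in mHet and 72.4 to 95.3 FPKM in WT embryos. Oocyte markers were also highest in mKO, at 501 to 643 FPKM, against 337 to 468 FPKM in mHet and 448 to 486 FPKM in WT. The part of both lists in the result was not tested.

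At the 8-cell stage most members were again higher in mKO than in WT embryos, but the difference rested on single libraries: it was lost without WT replicate 2 and shrank without mKO replicate 1. The summed FPKM was 1853, 895 and 733 in mKO, 1128 in mHet and 569 and 612 in WT embryos. Of 49 members 44 were higher in mKO than in WT, with a median log2 difference of 0.52 against -0.04 over all genes. None was called, where 0.012% of all genes were. At an unadjusted p under 0.05, 9 members were higher by limma (18.4%), against 4.01% of all genes in either direction. In 12 members all 3 mKO libraries were above both WT libraries, against 7.46% of all genes. Hist1h2ah, an H2A gene, stood at 192, 91.1 and 49.1 FPKM in mKO, 58.8 FPKM in mHet and 23.6 and 34.9 FPKM in WT embryos. The mKO libraries were all above WT, with a log2 difference of 1.70 (SE 0.49, limma adjusted p = 0.969). By class the median difference was 0.88 for H2A, 0.41 for H3, 0.33 for H1, 0.32 for H2B and 0.24 for H4. Without WT replicate 2 the median of the members was -0.01 with 23 of 49 higher, and without mKO replicate 1 it was 0.19 with 31 of 44 higher. With the run of consecutive library numbers in the labels as a term, it was 0.23. Some marker lists were apart between mKO and WT here. The 5 oocyte markers summed to 29.3 to 45.2 FPKM in mKO, 43.3 FPKM in mHet and 57.0 to 58.6 FPKM in WT embryos. The 3 primitive endoderm markers summed to 29.2 to 39.2 FPKM in mKO, 45.8 FPKM in mHet and 26.4 to 27.0 FPKM in WT embryos. Blastocyst markers overlapped, at 65.5 to 95.1 FPKM in mKO and 69.6 to 71.6 FPKM in WT, as did the epiblast and 2-cell lists. No oocyte or primitive endoderm marker was at 0, and the part of these lists in the result was not tested.

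In the first E3.5 table every one of the 57 members tested was higher in mKO than in WT blastocysts, but none was called. The summed FPKM was 1699 and 1899 in mKO, 930.7 and 897 in mHet and 655 and 644 in WT embryos, with the 3 genotypes apart. The median log2 difference of the members was 1.01 in mKO, against 0.21 over all genes, and 0 were called where 0.0407% of all genes were. At an unadjusted p under 0.05 limma gave 33 members (57.9%), against 5.48% of all genes. In 51 members both mKO libraries were above both WT libraries, which held for 16.3% of all genes. By class the median difference was 1.51 for H2A, 1.21 for H2B, 0.89 for H3, 0.73 for H4 and 0.19 for H1, so linker histone genes had the smallest difference. Of the marker lists, some were apart between mKO and WT. Primitive endoderm markers summed to 55.8 to 56.5 FPKM in mKO, 24.4 to 37.9 FPKM in mHet and 27.3 to 51.1 FPKM in WT. ExE markers summed to 18.2 to 20.5 FPKM in mKO, 28.6 to 32.1 FPKM in mHet and 24.5 to 44.2 FPKM in WT. Oocyte markers were low, at 1.04 to 1.52 FPKM in mKO and 3.32 to 4.92 FPKM in WT. Blastocyst and epiblast markers overlapped, and the part of these lists in the result was not tested.

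Hist1h2ap stood at 341 and 417 FPKM in mKO, 213 and 186 FPKM in mHet and 114 and 114 FPKM in WT blastocysts of that table. Hist1h2bc stood at 24.3 and 16.3 FPKM in mKO, 3.61 and 8.07 FPKM in mHet and 3.35 and 2.75 FPKM in WT, a log2 difference of 2.37 between mKO and WT (SE 0.45, limma adjusted p = 0.23). Hist1h2bh, another H2B gene, stood at 6.63 and 5.78 FPKM in mKO and 1.03 and 0.97 FPKM in WT, a log2 difference of 1.85 (SE 0.29, limma adjusted p = 0.131). The mKO libraries lay above the WT libraries in all 3 genes. The H3 gene Hist2h3b, of the Hist2 cluster, stood at 8.77 and 7.89 FPKM in mKO and 2.14 and 1.80 FPKM in WT, also apart, with a log2 difference of 1.65 (SE 0.30, limma adjusted p = 0.213). In mHet the median of the members was -0.01 against 0.43 over all genes, with 28 higher and 29 lower, 0 members and 0% of all genes called, and 2 members at an unadjusted p under 0.05, against 7.75% of all genes. Rn45s took 21.0% of all FPKM in WT replicate 1 of this table. As a share of FPKM with Rn45s left out, the members had 0.595% and 0.469% in mKO, 0.242% and 0.232% in mHet and 0.417% and 0.173% in WT, with mKO still above. Without WT replicate 1, 1 member was called.

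The other E3.5 table, with 5 libraries per genotype, did not show the same difference. The summed FPKM was 726, 387, 1222, 502 and 1406 in mKO, 1789.9, 1163, 939, 1129.97 and 2327 in mHet and 1696, 722, 604, 655 and 1938 in WT blastocysts, with wide overlap. Of 62 members 17 were higher and 45 lower in mKO than in WT, with a median log2 difference of -0.17 against -0.10 over all genes. With 1 library left out at a time, 9 to 35 members were higher. In the full fit 0 members were called where 0.0539% of all genes were. At an unadjusted p under 0.05, limma gave 3 members, against 5.76% of all genes. Linker histone genes were among the lower ones. Hist1h1c, the gene of H1.2, stood at 6.77, 6.96, 9.82, 4.53 and 9.32 FPKM in mKO and 15.9, 15.7, 10.4, 14.3 and 12.6 FPKM in WT. Every mKO library was below every WT library, as in 2 members in all and 1.82% of all genes, yet the log2 difference of -0.83 was not called (limma adjusted p = 0.558). Hist1h1d, the gene of H1.3, had a log2 difference of -0.88 (SE 0.27, limma adjusted p = 0.495). Hist1h2bc went the other way, at 13.0, 4.20, 17.0, 7.95 and 26.2 FPKM in mKO and 10.6, 1.52, 2.21, 6.54 and 4.77 FPKM in WT, a log2 difference of 1.26 (SE 0.54, limma adjusted p = 0.774) with overlapping groups. In mHet 60 of 62 members were higher than in WT, with a median of 0.37 against 0.14. None was called (0% of all genes), and 4 had an unadjusted p under 0.05 by limma, against 1.62% of all genes. The 2 E3.5 tables were normalised apart, and the difference between them was not tested.

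**Figure D4:**
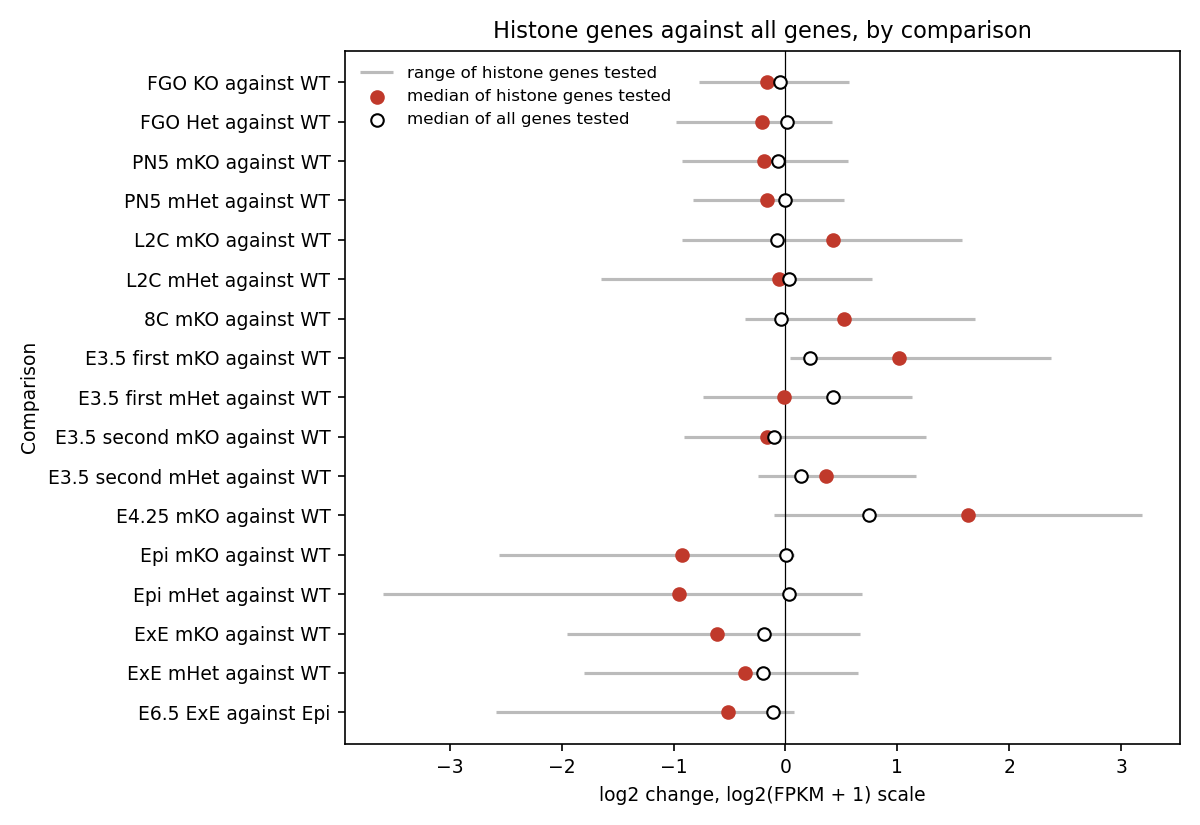
Median log2 difference, on the log2(FPKM + 1) scale, of the histone genes tested (filled points) and of all genes tested (open points) in each comparison down the page, with the range of the histone genes as a line. The filled point lies right of the open point for mKO at L2C, 8C, the first E3.5 table and E4.25, and left of it for mKO and mHet in Epi.

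At E4.25 histone genes were higher in mKO than in WT embryos, and this was the only genotype comparison with members past the threshold. Of 61 members 60 were higher and 29 were called, all as risen. These were 12 of 17 H2B genes, 7 of 12 H3 genes, 6 of 11 H4 genes, 4 of 16 H2A genes and 0 of 5 H1 genes. The calls did not follow the size of the difference. By class the median was 1.94 for H2A, 1.60 for H4, 1.59 for H2B, 1.58 for H3 and 1.04 for H1. Of all genes at E4.25, 14.6% were called, 14.3% higher and 0.251% lower, and 35.5% had an unadjusted p under 0.05 by limma, against 49 members (80.3%). The calls depend on the filter and on the scaling. Of the 29, 17 reached 1 FPKM in fewer than 2 WT libraries, so they passed the filter through other genotypes, and with no filter 4 members were called. Without rescaling the median log2 difference was 0.74 over all genes and 1.63 over the members. When libraries were scaled so that the median gene did not differ, 0 members were called among 25 called genes, although the members' median stayed 1.02 above that of all genes. With Rn45s removed before testing, 2 were called.

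The abundant and the scarce members differed in how they were called. Hist1h2bj, an H2B gene, stood at 5.33, 10.8, 25.5 and 22.4 FPKM in mKO and 1.06, 0, 0.147 and 1.89 FPKM in WT embryos. No mKO library overlapped WT, and the log2 difference was 3.18 (SE 0.52, limma adjusted p = 0.00362). Hist1h2bl, also H2B, stood at 3.65, 4.41, 12.0 and 10.1 FPKM in mKO and 0, 0, 0.0327 and 2.80 FPKM in WT embryos, with a log2 difference of 2.46 (SE 0.50, limma adjusted p = 0.00917) and no overlap. The H4 gene Hist1h4c, one of those high at the late 2-cell stage, stood at 3.57, 7.25, 8.22 and 9.44 FPKM in mKO and 0, 0, 2.69 and 1.87 FPKM in WT, with a log2 difference of 2.10 (SE 0.50, limma adjusted p = 0.0158) and no overlap. Hist1h2ad, an H2A gene, stood at 17.3, 46.3, 25.4 and 36.8 FPKM in mKO and 9.00, 17.0, 0.279 and 5.72 FPKM in WT embryos, just apart, with a log2 difference of 2.28 (SE 0.74, limma adjusted p = 0.0491). The other members with the largest called differences were the H2A gene Hist1h2an (2.58), the H2B genes Hist1h2bk (2.55), Hist1h2bg (2.31) and Hist1h2bn (2.27) and the H3 genes Hist1h3a (2.12) and Hist1h3e (2.01), on the log2 scale. Of the 29 called members, 20 had a WT mean below 1 FPKM.

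The most abundant members were not called. Hist1h2ap stood at 73.2, 180.5, 136 and 206 FPKM in mKO, 60.9 FPKM in mHet and 88.2, 81.6, 0.694 and 30.4 FPKM in WT embryos, so the groups overlapped. Hist1h4d stood at 25.4, 66.5, 26.5 and 62.4 FPKM in mKO and 19.9, 11.9, 4.35 and 8.46 FPKM in WT; the groups were apart, and the gene was not called. Hist1h2bc stood at 34.8, 8.73, 6.98 and 11.0 FPKM in mKO and 0.321, 0.761, 108 and 2.46 FPKM in WT, the highest value of all being in WT replicate 3. In 16 members all 4 mKO libraries were above all 4 WT libraries, which held for 21.6% of all genes, and 15 of these were among the called ones.

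Several properties of the libraries moved with genotype at E4.25. Members listed at 0 numbered 9, 5, 1 and 1 in mKO and 23, 30, 15 and 5 in WT libraries. Genes at 1 FPKM or more numbered 8101, 8988, 7194 and 8300 in mKO, 6971 in mHet and 7207, 6193, 5998 and 5923 in WT. The mKO and WT ranges of this number overlapped. Rn45s took 24.2%, 11.7%, 52.4% and 26.7% of FPKM in mKO, 53.2% in mHet and 21.0%, 38.6%, 68.6% and 60.5% in WT. Summed FPKM of the members was 426, 966, 931 and 1139 in mKO, 363 in mHet and 372, 373, 162 and 214 in WT, with no overlap between mKO and WT. As a share of FPKM without Rn45s the groups did overlap, at 0.323%, 0.491%, 1.41% and 0.897% in mKO, 0.556% in mHet and 0.361%, 0.524%, 0.404% and 0.361% in WT. The summed level of 5 blastocyst markers was 228 to 709 FPKM in mKO, 237 FPKM in mHet and 20.8 to 146 FPKM in WT, and that of 4 epiblast markers was 24.6 to 66.8 FPKM in mKO, 20.04 FPKM in mHet and 0.107 to 41.4 FPKM in WT. No blastocyst marker was at 0 in an mKO or the mHet library, and 1 of 5 was at 0 in WT replicates 2 and 3. The summed level of 4 primitive endoderm markers was 40.03 to 54.5 FPKM in mKO, 27.7 FPKM in mHet and 4.15 to 28.4 FPKM in WT, with mKO apart. WT replicate 3 stood apart from the other WT libraries, with 5 ExE markers at 1.08 FPKM (others 16.2 to 58.0 FPKM) and 3 decidua and blood markers at 9.29 FPKM (others 0 to 1.68 FPKM). The part of these differences in the histone result was not tested. Without WT replicates 3 and 4, a choice made after seeing the data, 21 members were called, 20 of them among the 29. Leaving out 1 library at a time gave 6 to 31 called members, with 6 without mKO replicate 4, 12 without WT replicate 2 and 13 without mKO replicate 2.

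**Figure D5:**
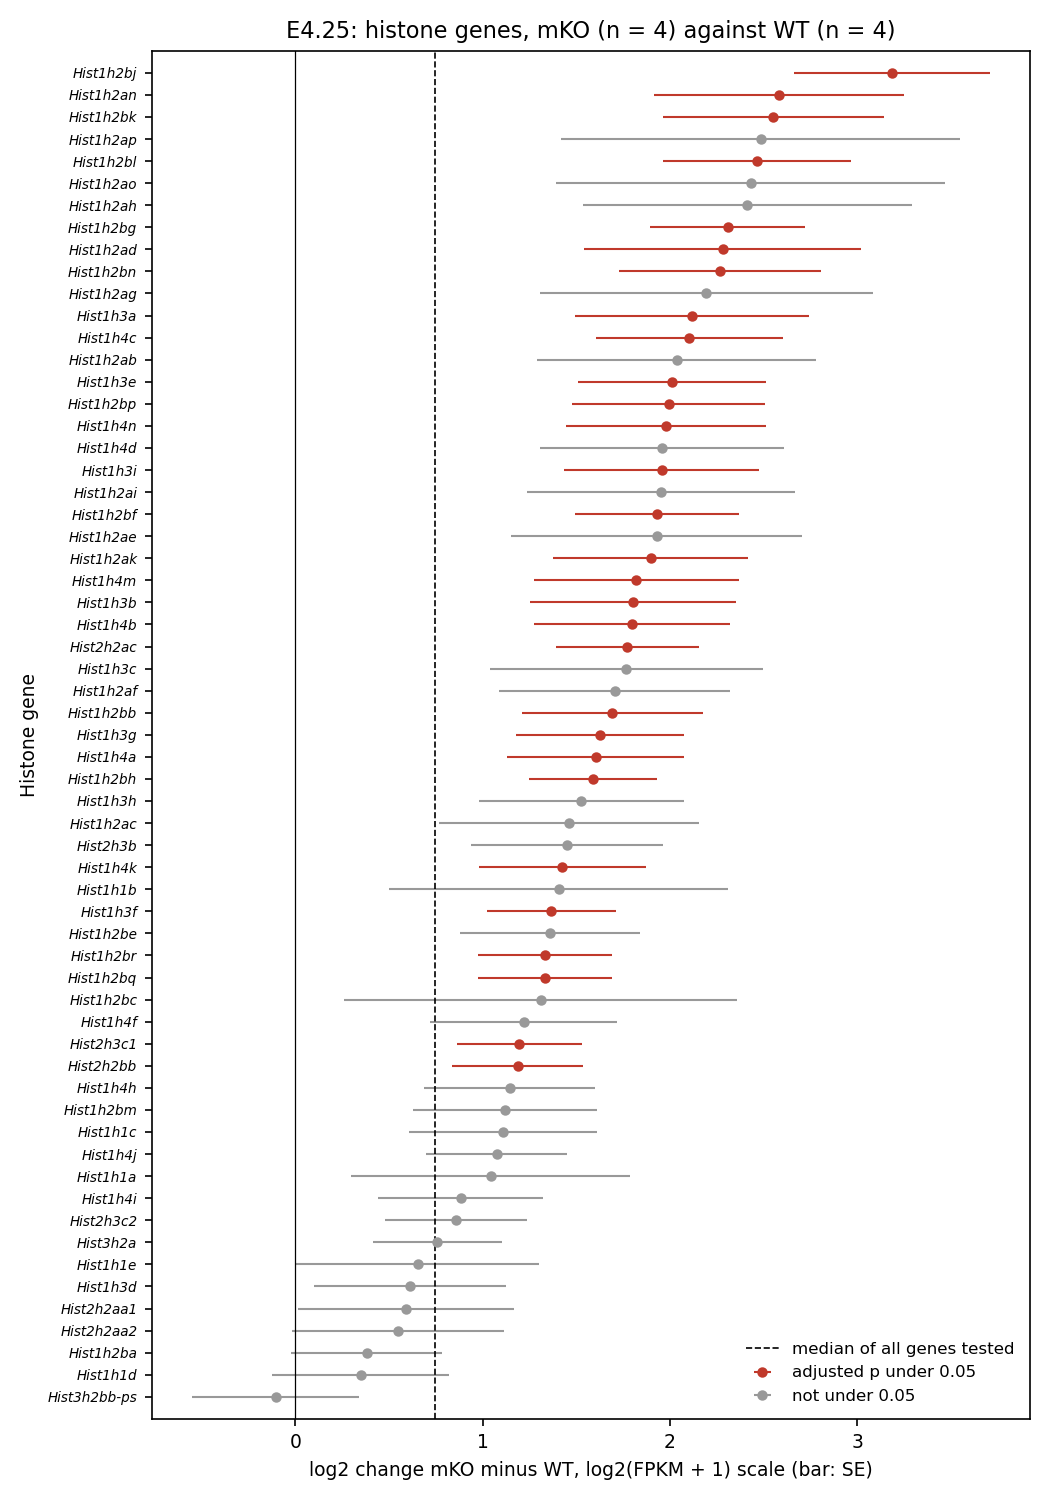
Log2 difference of mKO minus WT at E4.25 for each of the 61 histone genes tested, on the log2(FPKM + 1) scale, with its SE as a bar. The 29 called genes are red and lie right of 0, Hist1h2bj at the top with 3.18, and the dashed line marks the median of all genes, 0.74.

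At E6.5 most histone genes were lower in mKO and in mHet than in WT Epi, without a call, while the summed level was lower in mKO only. The summed FPKM in Epi was 777 and 1324 in mKO, 1398 and 1625 in mHet and 1613 and 1353 in WT, so mKO lay below WT and mHet overlapped it. As a share of FPKM without Rn45s, mKO also overlapped WT, at 0.191% and 0.341% in mKO, 0.345% and 0.383% in mHet and 0.377% and 0.336% in WT. In mKO Epi 64 of 66 members were lower than in WT, with a median log2 difference of -0.92 against 0.00 over all genes. None was called, where 0.00907% of all genes were, and 21 had an unadjusted p under 0.05 by limma (31.8%, against 4.44% of all genes). In 41 members both mKO libraries were below both WT libraries, against 21.1% of all genes. In mHet Epi 55 of 66 were lower, with a median of -0.95 against 0.03. None was called, where 0.0272% of all genes were, and 24 had an unadjusted p under 0.05 (36.4%, against 3.56%), while 42 were below WT without overlap, against 14.4% of all genes. By class the mKO medians were -1.51 for H4, -1.37 for H2B, -0.88 for H1, -0.64 for H3 and -0.25 for H2A. In mHet Epi all 19 H2B genes were lower, with a median of -1.43, while the H2A median was 0.34.

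Hist3h2bb-ps, an H2B pseudogene of the Hist3 cluster, stood at 0.174 and 1.65 FPKM in mKO, 0.211 and 1.64 FPKM in mHet and 3.26 and 6.82 FPKM in WT Epi. Both mutant genotypes were below WT, with a log2 difference of -1.71 for mKO (SE 0.45, limma adjusted p = 0.873). Hist1h4a, an H4 gene, stood at 0.283 and 2.91 FPKM in mHet and 6.78 and 10.7 FPKM in WT Epi, a log2 difference of -2.09 (SE 0.53, limma adjusted p = 0.615) without overlap. Hist1h2ap stood at 158 and 222 FPKM in mKO, 337 and 329 FPKM in mHet and 291 and 149 FPKM in WT Epi, with overlap between mKO and WT. The mKO library numbered 3 in the table held the ExE marker Elf5 at 18.4 FPKM, against 0.0584 FPKM in the other mKO library and 0.0295 and 0.114 FPKM in WT Epi, and its part in the result was not tested. The summed level of the whole ExE marker list in Epi was 7.26 to 49.2 FPKM in mKO, 9.45 to 31.0 FPKM in mHet and 10.3 to 31.1 FPKM in WT, against 205 to 292 FPKM in ExE. Without the mKO library numbered 3, 47 of 66 members were lower in mKO Epi, with a median of -0.53.

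In ExE the 2 mKO libraries disagreed. The summed FPKM was 255 and 1634 in mKO, 934 and 939 in mHet and 1261 and 849 in WT, so the mKO libraries lay on either side of all others. The summed level of 5 visceral endoderm markers was 1.24 and 26.1 FPKM in the same mKO libraries, 3.05 and 0.542 FPKM in mHet and 1.61 and 1.51 FPKM in WT ExE, with 1 to 3 of the 5 at 0, and its part in the result was not tested. The median log2 difference of the members was -0.61 in mKO, against -0.19 over all genes, and -0.36 in mHet, against -0.20. In both comparisons 0 members and 0% of all genes were called, and limma gave 1 member each at an unadjusted p under 0.05, against 7.74% of all genes for mKO and 5.89% for mHet. The H4 gene Hist1h4h stood at 1.02 and 0.77 FPKM in mHet and 4.45 and 3.80 FPKM in WT ExE, a log2 difference of -1.43 (limma adjusted p = 0.677) without overlap. Without mKO replicate 1 the mKO median was 0.38 with 57 of 66 members higher, and without mKO replicate 2 it was -1.63, so the direction rests on which library is kept. The difference of the mKO effect between ExE and Epi was tested as an interaction, which called 0 members and 0% of all genes and gave 2 members at an unadjusted p under 0.05 by limma, against 3.41% of all genes.

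Between the tissues the clearest histone difference lay in the Hist3 cluster, whose genes were lower in ExE than in Epi. Over the 3 genotypes 65 of 66 members were lower in ExE, with a median log2 difference of -0.51 against -0.11 over all genes. The 6 called members all fell, where 19.4% of all genes fell and 14.2% rose. Called members in either direction made up a smaller share than the 33.5% of all genes, and 12 members (18.2%) had an unadjusted p under 0.05 by limma, against 43.2%.

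Hist3h2ba, an H2B gene, was listed at 0 in both mKO, both mHet and 1 WT ExE library and at 0.272 FPKM in the other WT ExE library. In Epi it stood at 3.49 and 4.39 FPKM in mKO, 3.41 and 5.94 FPKM in mHet and 5.87 and 10.5 FPKM in WT. Every ExE library was below every Epi library, with a log2 difference of -2.58 (SE 0.18, limma adjusted p = 8.52e-07). Hist3h2a, the H2A gene of the same cluster, stood at 0.533 and 2.53 FPKM in mKO, 1.74 and 1.23 FPKM in mHet and 3.68 and 2.46 FPKM in WT ExE, against 6.74 and 6.87 FPKM in mKO, 6.73 and 11.5 FPKM in mHet and 14.2 and 11.9 FPKM in WT Epi. The tissues did not overlap, with a log2 difference of -1.85 (SE 0.23, limma adjusted p = 5.96e-05). The pseudogene Hist3h2bb-ps fell by 1.30 on the log2 scale (SE 0.26, limma adjusted p = 0.00194), and was listed at 0 in 5 of the 6 ExE libraries. All 3 members of the cluster were thus called lower in ExE. Hist3h2ba and Hist3h2bb-ps passed the filter through their Epi libraries, the tissue where they were higher. Of the 6 members called between the tissues, 4 stayed called with no filter on low values and 2 lost the call. Hist3h2ba shared 22.1% of its stretches with Hist3h2bb-ps, and Hist3h2bb-ps shared 30.0% with Hist3h2ba. The 3 members may therefore not be separate cases.

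The other 3 called members came from the Hist1 and Hist2 clusters. Hist2h4 fell by 1.01 on the log2 scale (SE 0.30, limma adjusted p = 0.0219), Hist2h2be, an H2B gene known from olfactory neurons, by 0.80 (SE 0.17, limma adjusted p = 0.00342) and Hist1h2ba by 0.70 (SE 0.21, limma adjusted p = 0.0227). Hist1h2ap did not differ beyond its spread, at 56.0 and 327 FPKM in mKO, 205 and 197 FPKM in mHet and 241 and 129 FPKM in WT ExE, and the Epi values given above overlapped these. The tissue labels were borne out by markers: the epiblast list summed to 51.7 to 128 FPKM in ExE and 580 to 738 FPKM in Epi. Without ExE mKO replicate 2, 41 members were called lower, and without the WT Epi library numbered 3, 3 were. Without the mHet Epi library numbered 4 and the mKO Epi library numbered 3, which held Elf5 at 5.02 and 18.4 FPKM and were left out after seeing the data, 5 members were called.

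Genes that make, process or carry histone mRNA and protein were followed beside the members. Of 22 genes for histone mRNA transcription and processing, 3 of 20 tested rose in mKO embryos at E4.25, a share near the 14.3% of all genes that rose there, and none was called in any other genotype comparison. These were Cpsf3, the endonuclease that cuts histone pre-mRNA, at a mean of 11.2 FPKM in mKO and 1.79 FPKM in WT (log2 difference 2.17, limma adjusted p = 0.0129), Cdk2, the kinase that activates NPAT, at 17.4 FPKM in mKO and 4.24 FPKM in WT (2.15, limma adjusted p = 0.0373), and the H4 promoter factor Hinfp at 1.90 FPKM in mKO and 0.0744 FPKM in WT (1.35, limma adjusted p = 0.0232). With that mean, no WT library reached 1 FPKM for Hinfp, so it passed the filter through other genotypes. The median of this list at E4.25 was 0.75, next to 0.74 over all genes. Slbp stood at 33.2, 43.0, 16.4 and 21.2 FPKM in mKO, 18.6 FPKM in mHet and 22.3, 13.5, 1.68 and 5.54 FPKM in WT embryos at E4.25, and was not called. Npat did not exceed 12.6 FPKM in any library, and Casp8ap2, a partner of NPAT in histone locus bodies, did not exceed 51.5 FPKM. No histone chaperone (0 of 19) and no replication-independent histone gene (0 of 10) was called there, with medians of 0.69 and 1.13.

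Between ExE and Epi, where 33.5% of all genes were called, 1 of 10 replication-independent histone genes tested rose and 6 fell, with a median log2 difference of -0.88 against -0.11 over all genes. In the chaperone and processing lists the called share was below that of all genes, with 4 of 19 and 2 of 22. H2afy, the gene of macroH2A1, rose to a mean of 26.8 FPKM in ExE, against 3.14 FPKM in Epi (log2 difference 2.81). Those that fell included H3f3a and H3f3b, which encode H3.3, by 1.34 and 0.81 on the log2 scale. Of 19 chaperone genes Asf1b, an H3-H4 chaperone, and Atrx, which acts in H3.3 deposition, rose by 1.11 and 1.12, while Nasp and the CAF-1 subunit gene Chaf1b fell by 0.82 and 0.89. Of 22 processing genes Zcchc11 rose by 0.56 and Pou2f1, an octamer-binding factor, fell by 0.73. All of these passed limma's adjusted threshold of 0.05.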

How the data were processed

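RNA was measured by Smart-seq2 on a DNBSEQ-T7, as the labels state. The tools HISAT2 2.2.1, HTSeq 0.6.0 and Trim Galore 0.4.2 appear in the submitters' processing notes, with the builds mm9 and hg19 and no role. The tool that made the FPKM values, the annotation, the use of strand and the handling of reads mapping to several places were not given in the sources used here. The authors deposited 8 tables of FPKM per gene, whose depth could not be read from the values. Gene names turned into dates (27, 27 and 25 in 3 tables) were dropped. Of 68 libraries 67 were used, because 2 at E4.25 were identical in all genes.

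log2(FPKM + 1) was tested with limma 3.58.1 (lmFit, eBayes with a trend) in R 4.3.3, all groups of a table sharing 1 estimate of the spread and both E6.5 tissues fitted together. Genes that reached 1 FPKM in fewer than 2 libraries were left out, and the threshold was an adjusted p of 0.05. The fit was also run on simulated data, with noise drawn independently for each gene and library. Differences shared across genes, as through Rn45s or between near-copies, were not simulated, and no result here rests on that run. Transcripts were those of GENCODE on GRCm38 and promoters those of RefSeq on GRCm38.p6; no coordinates were converted. Named genes are the 6 members with the highest mean in each table, up to 10 called members per direction (or the 3 with the smallest p), Slbp, Npat, Casp8ap2, and called genes of 3 lists; a few others were named after their values were seen. The members and all lists were chosen with earlier results of these data known. Replicate numbers were not taken as pairs, since same-numbered libraries did not deviate together in every pair. Alternatives were another pseudocount, no filter, 2 other scalings, fits of 2 groups alone, the replicate number or the run of consecutive library numbers as a term, and leaving out libraries.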

Additional observations from a re-analysis of the deposited data

Results flagged for a closer look

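Within groups of 4 or 5 libraries, 110 sets of values of members were checked for a library far from the others by Dixon's criterion, which chance meets in about 1 of 20 sets, and 8 met it. In mHet replicate 7 of the second E3.5 table, Hist1h1d stood at 13.8 FPKM (others 8.48 to 10.0), Hist1h2bk at 9.00 FPKM (others 2.52 to 2.90) and Hist1h3e at 23.6 FPKM (others 9.62 to 13.6). In WT replicate 3 at E4.25, Hist1h2bc stood at 108 FPKM (others 0.321 to 2.46) and Hist1h1d at 2.80 FPKM. In WT replicate 4 at E4.25, Hist1h2bl stood at 2.80 FPKM (others 0 to 0.0327) and Hist1h2bn at 2.72 FPKM (others 0 to 0.0456). In mKO replicate 1 at E4.25, Hist1h2bc stood at 34.8 FPKM (others 6.98 to 11.0).

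The summed histone FPKM of every mKO library was above every WT library at L2C, 8C, the first E3.5 table and E4.25, with ratios of the means of 1.36, 1.96, 2.77 and 3.09, and below in Epi, with a ratio of 0.708. After median ratio scaling the ratio at E4.25 was 1.56, with overlapping groups (261 to 961 in mKO and 305 to 467 in WT), and the Epi groups overlapped too. The difference between these stages was not tested.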

How the results depend on the processing

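The members' median turned or vanished on leaving out 1 library in 8-cell mKO embryos (0.52, and -0.01 without WT replicate 2) and in mKO ExE (-0.61, and 0.38 without mKO replicate 1). The members' median less that of all genes fell on either side of 0 in other comparisons too. These were KO and Het oocytes, mKO and mHet at PN5, mHet at L2C, mKO in the second E3.5 table and the interaction. It ran from -0.61 to 0.34 in KO oocytes and from -0.24 to 0.09 for mKO in the second E3.5 table. For mKO against WT at E4.25 the 29 called members became 18 with a pseudocount of 0.1, 4 with no filter on low values, 0 with median ratio scaling and 2 with Rn45s removed, while leaving out 1 library gave 6 to 31. For ExE against Epi the 6 calls ran from 3 to 41 on leaving out 1 library. In mHet Epi, a fit of the 2 groups alone called 1 member. Leaving out 1 library gave 0 to 1 called member for mKO and 0 to 2 for mHet in the first E3.5 table (1 without WT replicate 1, 2 without WT replicate 2), and 0 in all other genotype comparisons. Median ratio scaling moved the median of all genes at E4.25 by over 0.1, and the members' median less that of all genes was 1.02 under it and 0.88 without it. Of the values of single genes and group sums under the alternatives, 776 stayed on their side of the threshold or within their spread. Of the rest, 68 lost the threshold, 3 came to pass it and 13 moved. Counted as moved were group sums that changed by their spread or more, sums of groups with a single library and thus no spread, and 1 gene that changed sign.

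With the replicate number as a block, 8-cell mKO embryos had 6 called members against 0 without it, and E4.25 had 36; no other count moved. Deviations of same-numbered libraries correlated at -0.17 to 0.30 at the 8-cell stage and 0.059 to 0.14 at E4.25. Some correlations were higher, at 0.71 in Het oocytes and 0.56 and 0.51 for mKO and mHet at PN5. The value was 0.57 for mKO in the first E3.5 table and ran from -0.41 to 0.70 for mKO in the second. Because the correlation was not high in every comparison, the main fits did not use the numbers as pairs. No paired analysis was possible for Epi because its columns could be tied to a genotype but not to single labelled samples, so the replicate numbers of the labels could not be used. Depth was unknown, so no limit for values of 0 is given.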
